A study of Mus musculus with 11 samples.

Results

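The genes of 10 lectin-like receptors of phagocytes were described in mouse microglia, the resident macrophages of the brain: Mrc1, Cd93, Clec4a1, Clec4a2, Clec4a3, Clec4d, Clec4e, Clec4n, Clec5a and Clec12a. They are 10 of 19555 genes measured, and were chosen by their measured log2 differences in these arrays, several of which were among the largest for culture or cytokines. All 4 group comparisons had entered that choice. Differences of the 10 genes are therefore given as a description, without a test. Of the 10 genes, 10 passed the filter on dim probes.

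RNA was measured on 11 single-colour Agilent arrays in 4 groups of C57BL/6N mice. A_FACS (2 arrays) was microglia of adult females aged 12 to 24 weeks, used straight after a flow cytometry sort for intermediate CD45 and high CX3CR1. NB_FACS (3 arrays) was sorted in the same way from newborns of both sexes at postnatal day 1 to 3. NB_Control and NB_Stim (3 arrays each) came from newborn brain cells grown for weeks in flasks coated with poly-L-ornithine. The flasks were fed repeatedly with 20% medium conditioned by L-929 cells, which is rich in M-CSF. Microglia were then shaken off these glial cultures. Each flask pooled the brains of several newborns. Both cultured groups were then kept for 1 day in DMEM/F12 with 10% FBS, and NB_Stim alone received a mix of 3 human cytokines, CX3CL1, IL-34 and TGF-β1, each at a concentration of 100 ng/mL. Sorted and cultured cells thus differed in isolation and in the weeks spent in flasks as well as in the final day of culture. Adult and newborn cells differed in sex as well as age. These differences cannot be told apart. The sources do not say which animals gave which array, so the spread between arrays may be partly technical.

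C-type lectin receptors are surface proteins of myeloid cells that bind sugars, lipids or proteins through a shared fold, the C-type lectin domain. Some carry an inhibitory motif that recruits phosphatases (Clec12a and some of the Clec4a group). Others signal through the adaptors Fcer1g or Tyrobp to the kinase Syk and on to NF-κB (Clec4d, Clec4e, Clec4n, Clec5a). Mrc1, the mannose receptor, takes up glycoproteins and in the brain is known as a marker of border macrophages rather than of microglia. Cd93 is a receptor of endothelial and myeloid cells linked to the clearance of dying cells.

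The arrays read each gene with oligonucleotides of 45 to 54 bases, and the 10 genes had 14 of them. The probes behind the main results are printed here 5′ to 3′, all in lower case because no part of them was singled out. They come from the scanner files, which give no genome position for them.
Mrc1: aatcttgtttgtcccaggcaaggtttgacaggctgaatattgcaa
Cd93: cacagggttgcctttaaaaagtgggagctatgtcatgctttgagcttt
Clec4a3: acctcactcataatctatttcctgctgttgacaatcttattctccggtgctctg
Clec4a2, bright probe: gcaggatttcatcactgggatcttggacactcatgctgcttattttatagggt
Clec4a2, dim probe: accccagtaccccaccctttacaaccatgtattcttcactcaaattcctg
Clec4d: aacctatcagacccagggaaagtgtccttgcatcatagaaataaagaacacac
Clec4e: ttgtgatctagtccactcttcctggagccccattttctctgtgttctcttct
Clec4n, probe used: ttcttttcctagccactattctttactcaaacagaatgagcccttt
Clec4n, probe below the filter: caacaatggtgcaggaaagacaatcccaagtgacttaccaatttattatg
The Clec4 genes are close paralogs, so the probes were compared with each other. Over these 14 probes and those of the neighbouring genes Clec4a4, Clec4b1 and Clec4b2, 19 in all, the longest run of bases shared with a probe of any other gene was between 13 and 16. The transcripts were not compared, so cross-hybridisation was not tested.

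Levels are quantile-normalised log2 signals, on which a difference of 1 is a doubling. They are compared between groups within a gene, never between genes. Between 66.8% and 80.4% of probes were well above background on an array, and no spot was saturated. Replicate 3 of each newborn group lay on a second slide and stood further from its group than the others. The SD of the log2 difference between replicates over all genes was 0.26 to 0.54 within slide 1 and 0.57 to 0.70 between slides. Of 12 microglia markers, 12 were well above background on each A_FACS array and 11 on each newborn array. Tmem119 averaged 16.22 in A_FACS, 14.04 in NB_FACS, 10.36 in NB_Control and 13.26 in NB_Stim. The markers did not move alike, and P2ry12 averaged 14.17, 12.95, 6.51 and 7.54 in the same order.

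**Figure D1:**
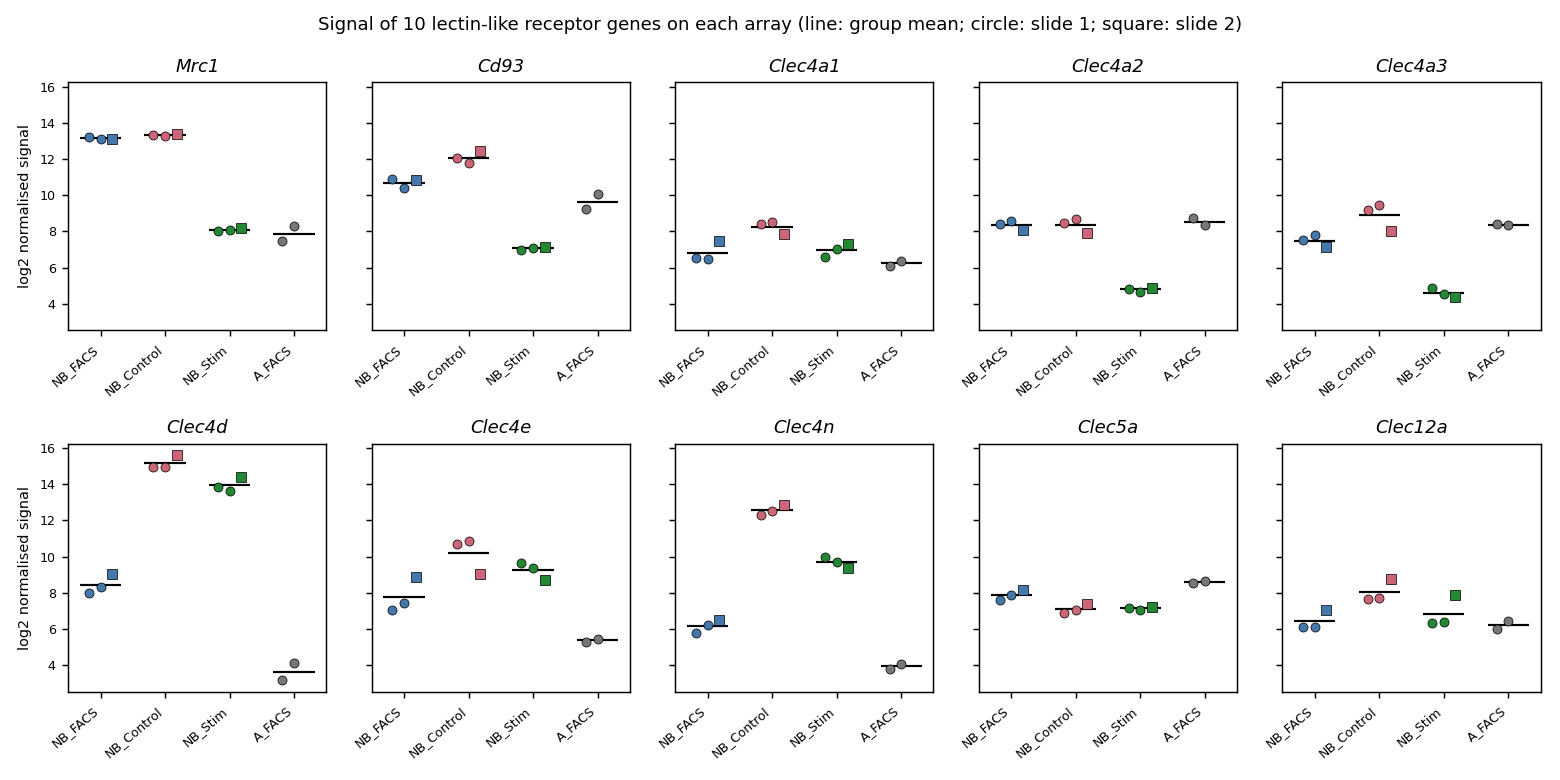
Log2 normalised signal (vertical axis) of the 10 receptor genes on each of the 11 arrays, by group, with circles for slide 1, squares for slide 2 and a line at the group mean. Mrc1 lay above 13 in NB_FACS and NB_Control and below 9 in NB_Stim and A_FACS, whereas Clec4d and Clec4n stood highest in the cultured groups.

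Mrc1 read higher in newborn preparations, sorted or cultured, than in adult ones, and near the adult level once cytokines were added. Its level was 13.23, 13.11 and 13.11 on the NB_FACS arrays and 13.31, 13.27 and 13.40 in NB_Control. With cytokines it was 8.01, 8.06 and 8.17, and sorted adult cells read 7.44 and 8.30. Thus NB_Stim and A_FACS overlapped, while every array of both lay below every array of NB_FACS and NB_Control. The cytokine difference was -5.24 ± 0.19 (SE of the log2 difference, n = 3 and 3), a 37.9-fold lower signal, and it was -5.25 on slide 1 and -5.23 on slide 2. Between adult and newborn sorted cells the difference was -5.28 ± 0.22 (n = 2 and 3), or 38.9-fold. The culture difference, NB_Control minus NB_FACS, was 0.17 ± 0.19.

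Cd93 was highest in control culture and lowest with cytokines. Sorted newborn cells read 10.87, 10.39 and 10.83, and cultured control cells 12.04, 11.78 and 12.42, with no overlap. The stimulated cultures read 6.96, 7.07 and 7.15, the lowest of all 4 groups. Adult cells lay between, at 9.24 and 10.05. NB_Stim was lower than NB_Control by 5.02 on the log2 scale (difference -5.02 ± 0.24, 32.4-fold) and lower than NB_FACS too (-3.63 ± 0.24). The culture difference was 1.38 ± 0.24. The adult difference was smaller, at -1.05 ± 0.27, and it was -0.64 without A_FACS replicate 1 and -1.45 without A_FACS replicate 2. Over the 11 arrays Cd93 and Mrc1 correlated at r = 0.85 (Pearson, a description, since the arrays share groups and slides).

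Cells other than microglia express both genes, so marker lists were read beside them. Of 12 border macrophage markers (Mrc1 not among them), 12 had a negative cytokine difference, and 1 was called, Gas6 (-1.36, limma adjusted p = 0.0123). Their log2 summed signal ran from 14.12 to 14.71 in NB_FACS, 16.07 to 16.62 in NB_Control, 15.01 to 15.37 in NB_Stim and 12.64 to 12.94 in A_FACS. The list thus moved with Mrc1 in direction under cytokines and with age. In NB_Stim against NB_FACS, 7 of the 12 were lower in sign and 5 higher. Of them 5 were called lower and 3 higher, with a median of -0.83. The sum was higher there, while Mrc1 was lower (-5.07). Pf4 (3.86) and Ms4a7 (5.03) rose most, and Siglec1, Dab2 and Stab1 were also higher in sign. In culture 5 were called higher and 4 lower (median 0.69), among them Ms4a7 (6.66, adjusted p = 1.44e-05) and Pf4 (4.71, adjusted p = 0.000825) on one side. On the other, Lyve1 averaged 7.82 in NB_FACS and was well above background on 0 of 3 NB_Control arrays. In bulk RNA, fewer cells of a type and less RNA per cell cannot be told apart. The part of border macrophages in the Mrc1 values was not tested.

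For Cd93 the endothelial markers bear on the sorted cells. The log2 summed signal of 8 endothelial genes was 12.27 to 12.71 in NB_FACS and 12.65 to 13.66 in A_FACS, against 9.998 to 10.15 in NB_Control and 11.02 to 11.27 in NB_Stim. Cldn5, the tight junction protein that defines brain endothelium, averaged 11.99 in NB_FACS and 4.77 in NB_Control. The sum was lowest in NB_Control, where Cd93 was highest, but 5 of the 8 markers had a negative cytokine difference, and Cldn5 averaged 4.12 in NB_Stim. Flt1 alone was called higher with cytokines, from 7.61 to 10.39. How much endothelial RNA contributed to Cd93 in the sorted groups was not tested.

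**Figure D2:**
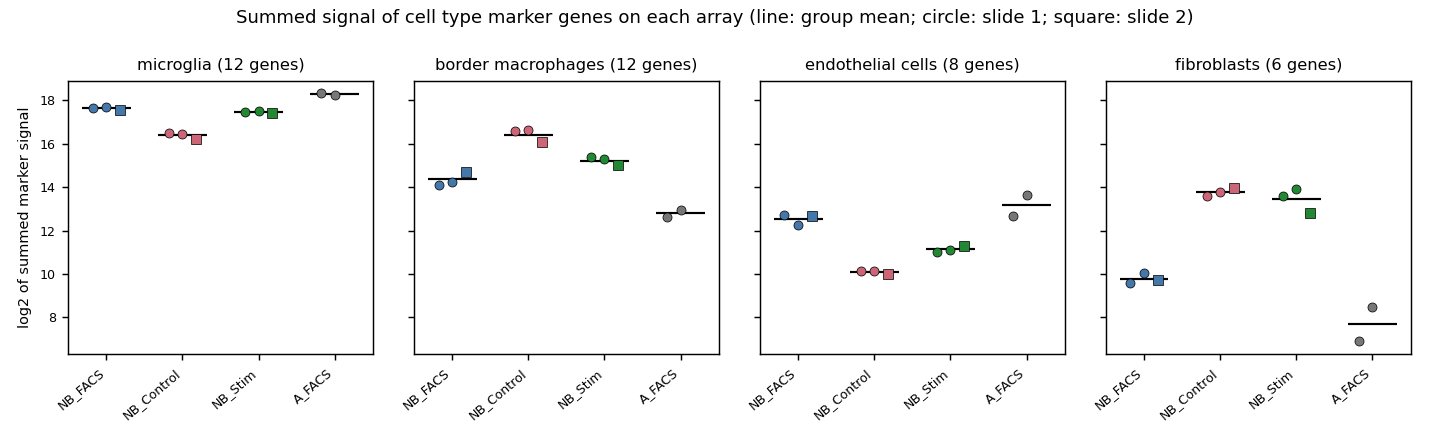
Log2 of the summed normalised signal (vertical axis) of markers of microglia, border macrophages, endothelial cells and fibroblasts on each array, by group, with circles for slide 1, squares for slide 2 and a line at the group mean. The fibroblast sum lay between 12.79 and 13.97 in the cultured groups and between 6.89 and 10.03 in the sorted ones. The endothelial sum was higher in the sorted groups, though not every gene in it was.

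The Clec4a group, whose proteins include inhibitory receptors of dendritic cells and macrophages, showed a large cytokine difference in Clec4a2 and Clec4a3. Clec4a3 read 7.54, 7.79 and 7.13 in NB_FACS and 9.19, 9.47 and 8.00 in NB_Control. In NB_Stim the values were 4.87, 4.52 and 4.37, and adult cells gave 8.40 and 8.33. Its lowest group was therefore NB_Stim, which overlapped no other. The cytokine difference was -4.31 ± 0.34 (19.8-fold) and the culture difference 1.40 ± 0.34. NB_Control replicate 3, on slide 2, was the lowest array of its group. Without it the cytokine difference was -4.75 and the culture difference 1.85.

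Clec4a2, an inhibitory receptor of the same group, was alike in the sorted and control groups. Averaged over its 4 probes it gave 8.42, 8.55 and 8.09 in NB_FACS, 8.45, 8.69 and 7.90 in NB_Control, and 8.72 and 8.36 in A_FACS. The 3 groups overlapped, and the culture difference was -0.01 ± 0.22. With cytokines the values were 4.84, 4.65 and 4.89, a difference of -3.55 ± 0.22 (11.7-fold).

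The 4 Clec4a2 probes did not read alike. The probe designed on transcript NM_011999.4, printed above as the bright one, gave a cytokine difference of -4.40, and the probe on NM_001170332.1 gave -4.34. Another, on XM_006506155.1, gave -4.26, but it was well above background on 0 of 3 NB_Stim arrays. That value is therefore no measured size, and the gene mean of -3.55 (11.7-fold) includes it. The dim probe, on NM_001170333.1, gave only -1.19, from 5.77 to 4.58. In culture the XM_006506155.1 probe was lower by 1.07 on the log2 scale (-1.07), whereas the dim one was higher by 0.70. The gene mean for culture therefore averages probes of opposite direction. With the brightest probe alone the cytokine difference was -4.34.

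**Figure D3:**
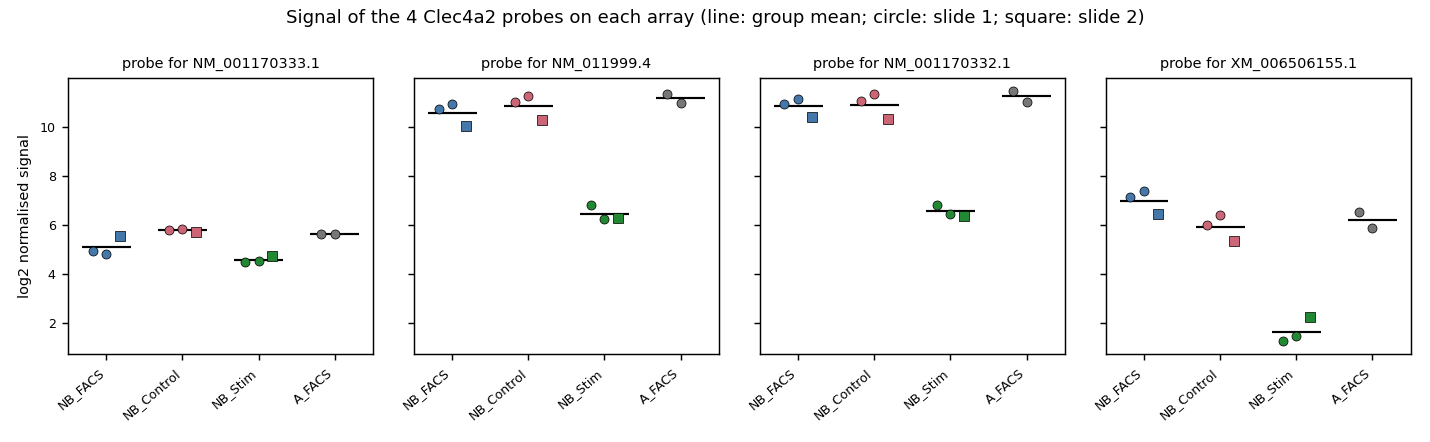
Log2 normalised signal (vertical axis) of each of the 4 Clec4a2 probes on the 11 arrays, by group, with circles for slide 1, squares for slide 2 and a line at the group mean. The probes on NM_011999.4 and NM_001170332.1 averaged over 10 in every group but NB_Stim, where they averaged 6.43 and 6.54, while group means of the probe on NM_001170333.1 ran from 4.58 to 5.77.

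Clec4a1, the first gene of the cluster, differed from both. It ranged from 6.48 to 7.46 in NB_FACS, 7.83 to 8.54 in NB_Control, 6.58 to 7.29 in NB_Stim and 6.10 to 6.35 in A_FACS. Only the NB_FACS and NB_Stim ranges overlapped. The culture difference was 1.44 ± 0.30, made up of 1.96 on slide 1 and 0.38 on slide 2. The cytokine difference was -1.29 ± 0.30, or -1.66 and -0.55 on the 2 slides.

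Clec4d, Clec4e and Clec4n (the receptors MCL, Mincle and Dectin-2, which sense mycobacterial and fungal glycans and lipids through Fcer1g) formed the second pattern, with low signal in sorted cells and high signal in culture. Clec4d read 7.97, 8.30 and 9.06 in NB_FACS. In NB_Control it read 14.96, 14.94 and 15.62, which lay 6.73 ± 0.36 higher on the log2 scale, or 106-fold. The stimulated cultures read 13.84, 13.60 and 14.39, all below the control cultures by a smaller margin (-1.23 ± 0.36) and still 5.50 ± 0.36 above NB_FACS. Adult cells gave 3.15 and 4.14, and of these 2 arrays 1 was well above background. The 4 groups did not overlap. Neutrophils also express Clec4d and Clec4e. The log2 summed signal of 8 neutrophil markers was 12.54 in NB_FACS replicate 3, the sorted newborn array with the highest Clec4d and Clec4e, against 9.47 and 9.24 in NB_FACS replicates 1 and 2. It ran from 10.33 to 10.46 in NB_Control and from 10.81 to 11.19 in NB_Stim. S100a8 averaged 7.90 in NB_FACS, 8.90 in NB_Control and 10.42 in NB_Stim. In each cultured group against NB_FACS, 5 of the 8 markers were lower in sign, 3 were higher and 0 were called. Without NB_FACS replicate 3 the Clec4d culture difference was 7.04. The part of neutrophils in these values was not tested.

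Clec4n behaved like Clec4d in culture but gave a larger cytokine difference. Its probe read 5.75, 6.22 and 6.49 in NB_FACS and 12.29, 12.50 and 12.87 in NB_Control, a difference of 6.40 ± 0.24 (84.4-fold). It read 9.99, 9.72 and 9.39 in NB_Stim, 2.86 lower than control (-2.86 ± 0.24, 7.24-fold). The adult arrays, at 3.80 and 4.08, lay below all others. The second Clec4n probe was well above background on 2 of 3 NB_Control arrays and on no other, so it failed the filter. When it was averaged in, the culture difference became 4.58 and the adult difference -0.93 in place of -2.22.

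Clec4e was the least even of the 3. It read 7.02, 7.46 and 8.88 in NB_FACS, 10.71, 10.84 and 9.05 in NB_Control, and 9.65, 9.36 and 8.70 in NB_Stim. The lone slide 2 array of each group was the highest in NB_FACS and the lowest in both cultures. Accordingly, the culture difference of 2.41 ± 0.56 was 3.54 on slide 1 and 0.17 on slide 2. NB_Stim minus NB_FACS, 1.45 ± 0.56, even changed sign, from 2.26 on slide 1 to -0.18 on slide 2. The cytokine difference was -0.96 ± 0.56, with overlapping groups. Adult cells were lowest, at 5.28 and 5.45, and the adult difference was -2.42 ± 0.62.

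The remaining receptors showed smaller differences. Clec5a, an activating receptor that signals through Tyrobp, ran the other way in culture. It ranged from 7.61 to 8.14 in NB_FACS, 6.87 to 7.39 in NB_Control, 7.07 to 7.22 in NB_Stim and 8.52 to 8.65 in A_FACS. Both cultured groups overlapped each other and lay below both sorted groups. Its culture difference was -0.77 ± 0.18, its adult difference 0.71 ± 0.20 and its cytokine difference 0.04 ± 0.18. Clec12a, an inhibitory receptor that binds uric acid crystals, ranged from 6.10 to 7.03 in NB_FACS, 7.63 to 8.74 in NB_Control, 6.30 to 7.87 in NB_Stim and 6.005 to 6.42 in A_FACS. The slide 2 array was the highest of each newborn group. The culture difference was 1.60 ± 0.46, and the cytokine difference of -1.17 ± 0.46 came with overlapping groups.

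Counted by the fit over all genes (limma, adjusted p under 0.05), 8 of the 10 genes were called in culture, 7 higher and 1 lower, where the background over 19555 genes was 29.7% (15.8% higher and 13.9% lower). For cytokines 5 were called, all 5 lower, against a background of 3.41% (1.4% higher and 2% lower). For NB_Stim against NB_FACS 7 were called, 2 higher and 5 lower, against 31.1% (16% and 15.1%). With age 6 were called, 1 higher and 5 lower, against 22.7% (9.75% and 12.9%). This count was 3 without A_FACS replicate 1, and 4 without A_FACS replicate 2, without NB_FACS replicate 1 or with only the groups compared. Since these comparisons chose the genes, nothing is read from the counts. When arrays of the same replicate number were treated as a block, Clec4d and Clec12a joined the cytokine calls, which made 7. The median cytokine difference of the 10 genes was -2.07, and over all genes it was -0.000761.

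The 9 Clec4 genes lie in a row on chromosome 6 (GRCm38.p6, RefSeq), in the order Clec4a1, Clec4a3, Clec4a4, Clec4b1, Clec4a2, Clec4b2, Clec4n, Clec4d and Clec4e, from 122921848 to 123289871. Clec4a4, Clec4b1 and Clec4b2 are not among the 10 genes chosen, and adjusted p-values of the fit over all genes are given for them. These 3 genes were named after their values were seen, so the p-values are no independent test of them. Each was lower with cytokines. Clec4a4, an inhibitory receptor of the Clec4a group, averaged 5.81 ± 0.09 in NB_Control (SD, n = 3) and 2.30 ± 0.14 in NB_Stim, where it was well above background on 0 of 3 arrays. Its signal fell at least 5.07-fold in the main processing. This bound sets the control mean against the lowest signal well above background on each NB_Stim array, or the probe's own signal where that was higher. The limma adjusted p of 3.59e-06 belongs to the signals themselves and not to the bound. Among the alternatives the log2 difference of Clec4a4 was as small as -0.86, and the call was lost under 0 of 22. Clec4b1, which like Clec4b2 is known as an activating receptor of dendritic cells, fell from 9.91 ± 0.25 to 7.19 ± 0.19 (difference -2.71 ± 0.18, adjusted p = 8.09e-05). Clec4b2 fell from 6.58 ± 0.82 to 3.83 ± 0.24 (-2.75 ± 0.34, adjusted p = 0.00231), and it was well above background on 1 of 3 stimulated arrays. By Tukey's test with Benjamini-Hochberg adjustment Clec4b2 was not called (adjusted p = 0.067).

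In culture all 3 neighbours rose, by very different amounts. Clec4b1 rose by 4.67 ± 0.18 (25.5-fold, adjusted p = 2.83e-07), Clec4b2 by 1.81 ± 0.34 (adjusted p = 0.00285) and Clec4a4 by 0.74 ± 0.14 (adjusted p = 0.00283). Clec4a4 stayed 2.77 lower in NB_Stim than in NB_FACS (-2.77 ± 0.14, at least 3.03-fold in the main processing). Clec4b1 was instead 1.96 ± 0.18 higher in NB_Stim (adjusted p = 3.54e-05). Among the alternatives these differences were as small as -0.56 for Clec4a4 and 0.66 for Clec4b1. None of the 3 was called with age (adjusted p = 0.70, 0.32 and 0.69).

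**Figure D4:**
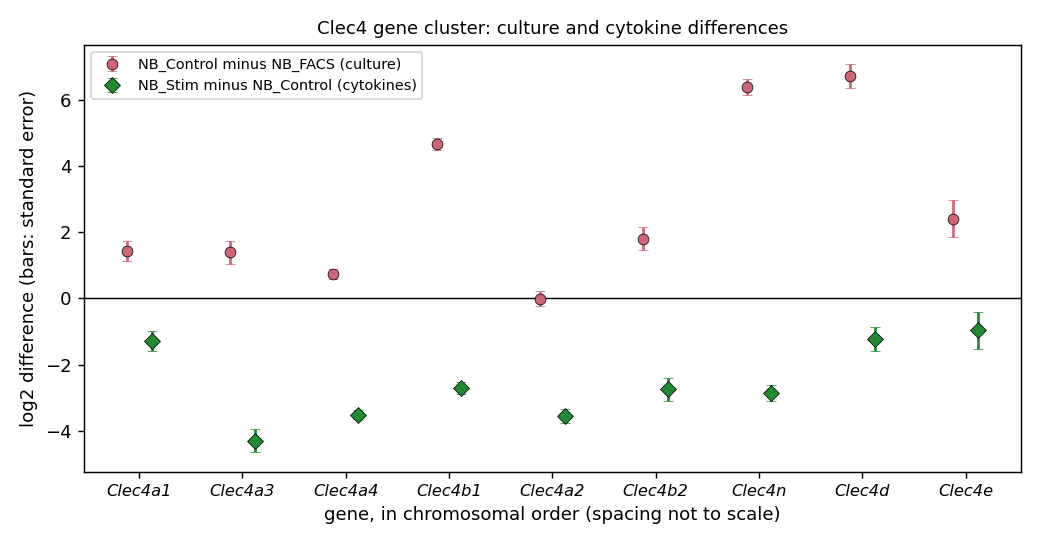
Log2 difference with its standard error (vertical axis) for culture and for cytokines, for the 9 genes of the Clec4 cluster in chromosomal order (horizontal axis, not to scale). The culture differences ran from -0.01 for Clec4a2 to 6.73 for Clec4d, and every cytokine difference was negative, from -4.31 for Clec4a3 to -0.96 for Clec4e.

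Other families of the fold were read from a list of 50 C-type lectin and related genes, of which 34 passed the filter. With cytokines 5 of the 34 were called, all lower (14.7%, against 3.41% over all genes). They were the cluster genes Clec4a4, Clec4b1 and Clec4b2 together with Clec2d and Clec2g. The list was chosen with earlier results of these data known, so nothing is read from this share. Clec2d, a ligand of a natural killer cell receptor, fell by 2.90 (-2.90 ± 0.58, adjusted p = 0.0269), from 9.87 ± 0.26 to 6.97 ± 0.22, and Clec2g of the same group fell by 2.81 (-2.81 ± 0.20, adjusted p = 0.000126). Both had risen in culture, by 2.56 ± 0.58 (adjusted p = 0.00807) and 2.64 ± 0.20 (adjusted p = 1.19e-05). The Clec2d cytokine call was lost under 8 of 23 alternatives, with an adjusted p of up to 0.331. The list's median cytokine difference was -0.25.

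Of the closest relatives of Mrc1 and Cd93, those measured were not called with cytokines. Of the mannose receptor family, Mrc2 differed by -0.63 ± 0.44 (adjusted p = 0.60) and Pla2r1 by -0.26 ± 0.34 (adjusted p = 0.83). Ly75 was well above background on 1 of 3 NB_Control arrays and 0 of 3 NB_Stim arrays, so its difference was not measured. With age Mrc2, an endocytic collagen receptor, rose by 2.02 ± 0.49 (adjusted p = 0.0162), opposite in sign to Mrc1, and Ly75 fell by 2.08 (-2.08 ± 0.60, adjusted p = 0.0331). Ly75 was well above background on 1 of 2 A_FACS arrays. Its age call was lost under 9 of 20 alternatives, and the difference was as small as -0.33. That of Mrc2 was lost under 2 of 21. Cd93 shares its domain layout with Thbd, Cd248 and Clec14a. The cytokine differences were -1.40 ± 0.38 for Thbd (adjusted p = 0.089) and -0.98 ± 0.41 for Cd248 (adjusted p = 0.30). Clec14a was well above background on 0 of 3 NB_Control and 1 of 3 NB_Stim arrays and gave no measured difference. Whether any of these differed from the differences of Mrc1 or Cd93 was not tested.

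In culture 16 of the 34 genes were called, 12 higher and 4 lower (47.1%, against 29.7% over all genes). Besides the genes above, the largest rises were Colec12, a scavenger receptor (4.26 ± 0.25, adjusted p = 2.96e-06), Thbd, the thrombin-binding anticoagulant receptor (3.62 ± 0.38, adjusted p = 9.08e-05), Cd72, an inhibitory receptor of B cells and macrophages (3.23 ± 0.27, adjusted p = 2.17e-05), and Cd248, a protein of stromal cells (2.56 ± 0.41, adjusted p = 0.00117). Ly75 fell by 1.94 (-1.94 ± 0.54, adjusted p = 0.0208), the oxidised lipoprotein receptor Olr1 by 1.14 (-1.14 ± 0.23, adjusted p = 0.00431) and Clec3b by 1.08 (-1.08 ± 0.19, adjusted p = 0.00193). The Ly75 call was lost under 7 of 22 alternatives, among them leaving out NB_FACS replicate 1 or 2 or NB_Control replicate 1 or 2, and its difference was as small as -0.32 (adjusted p up to 0.215). Clec14a, an endothelial protein, was also called lower (limma adjusted p = 0.0102). It was well above background on 1 of 3 NB_FACS and 0 of 3 NB_Control arrays, so the size was not measured. The Clec14a call was lost under 3 of 22 alternatives, normexp among them, and its difference was as small as -0.24. Fibroblast markers moved with the genes that rose. Their log2 summed signal over 6 genes was 9.59 to 10.03 in NB_FACS and 13.58 to 13.97 in NB_Control, and 4 of the 6 were called higher. The part of fibroblasts in Cd248, Colec12 and Thbd was not tested.

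With cytokines present, 11 of the 34 genes were called against NB_FACS (32.4%, near the 31.1% over all genes), 6 higher and 5 lower. Colec12 (4.65 ± 0.25, adjusted p = 2.12e-06) and Cd72 (3.48 ± 0.27, adjusted p = 1.44e-05) rose most, followed by Thbd, Clec4b1, Cd248 and Klrd1, which rose by 0.64 to 2.22. Ly75, Clec4a4, Clec1b, Clec3b and Olr1 fell. The Klrd1 call was lost under 8 of 22 alternatives, those of Clec1b and Olr1 under 7 of 23 each, and that of Cd248 under 5 of 23. With age 9 of the 34 were called, 5 higher and 4 lower (26.5%, against 22.7% over all genes). The rises included Mrc2, Thbd (1.82 ± 0.43), Klrd1 (1.80 ± 0.22) and Sele (0.67 ± 0.21). Colec12 (-2.39 ± 0.28, adjusted p = 0.00039), Ly75, Clec11a (-1.95 ± 0.44) and Clec3b (-1.15 ± 0.21) fell. The brightest Klrd1 probe alone gave the opposite sign with age, -0.57. Without A_FACS replicate 2 the calls of Mrc2 and Thbd were lost, and without A_FACS replicate 1 those of Ly75 and Clec11a. The Sele call was lost under 12 of 20 alternatives.

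The pathway behind the receptors was read from 28 genes, of which 25 had a probe and passed the filter. In culture 3 adaptors rose and the NF-κB subunits of the list fell. Hcst (0.82 ± 0.25, adjusted p = 0.0303), Tyrobp (0.72 ± 0.22, adjusted p = 0.0333) and Fcer1g (0.70 ± 0.20, adjusted p = 0.0234), the membrane adaptors that pair with activating lectins, were the only 3 genes called higher. Each of these calls was lost under 8 to 11 of 23 alternatives. The NF-κB subunits Rel (-2.60 ± 0.32, adjusted p = 0.000228), Nfkb1 (-2.45 ± 0.27, adjusted p = 0.00011) and Rela (-0.96 ± 0.17, adjusted p = 0.0018) fell, as did Malt1 (-1.92 ± 0.30, adjusted p = 0.000894) and Bcl10 (-0.80 ± 0.17, adjusted p = 0.00568), which carry the signal from Syk to NF-κB. Prkcd (-1.03), Lyn (-0.92), Inpp5d (-0.79), Src (-0.61) and Plcg2 (-0.60) were also among the 11 lower calls. Of these, Src was lost under 11 of 23 alternatives, Plcg2 under 7 and Inpp5d under 5, and Prkcd and Lyn under none. In all, 14 of 25 were called (56%, against 29.7%), or 8 without NB_FACS replicate 1 or 2 and 9 without NB_Control replicate 2. Syk itself differed by 0.35 ± 0.31 and was not called.

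Cytokines moved few of these genes. Of 25, 2 were called (8%, against 3.41%). The phospholipase Plcg2 rose by 0.77 ± 0.18 (adjusted p = 0.0467), a call that was lost under 15 of 23 alternatives. Neither of the 2 calls held without NB_Control replicate 1, NB_Control replicate 2, NB_Stim replicate 1 or NB_Stim replicate 2. With replicate number as a block, 5 of the 25 were called. Rel differed by -0.08 ± 0.32 and Nfkb1 by 0.03 ± 0.27, neither of them called. Against NB_FACS, 11 of 25 were called (44%, against 31.1%), 2 higher, Hcst (1.18 ± 0.25) and Tyrobp (1.01 ± 0.22), and 9 lower. With age 8 were called, all higher (32%, against 22.7%), led by Rel (1.46 ± 0.36, adjusted p = 0.0165), Ptprc, which encodes CD45 (1.22 ± 0.21, adjusted p = 0.0029), Nfatc1 (1.103 ± 0.25, adjusted p = 0.0108) and Prkcd (0.99 ± 0.17, adjusted p = 0.00261). The Rel call was lost under 4 of 21 alternatives. That of Nfatc1 was lost under 3 of 21, its brightest probe among them, and its difference was as small as 0.21. Those of Ptprc and Prkcd held under all 21. Without A_FACS replicate 1 the age count was 3.

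**Figure D5:**
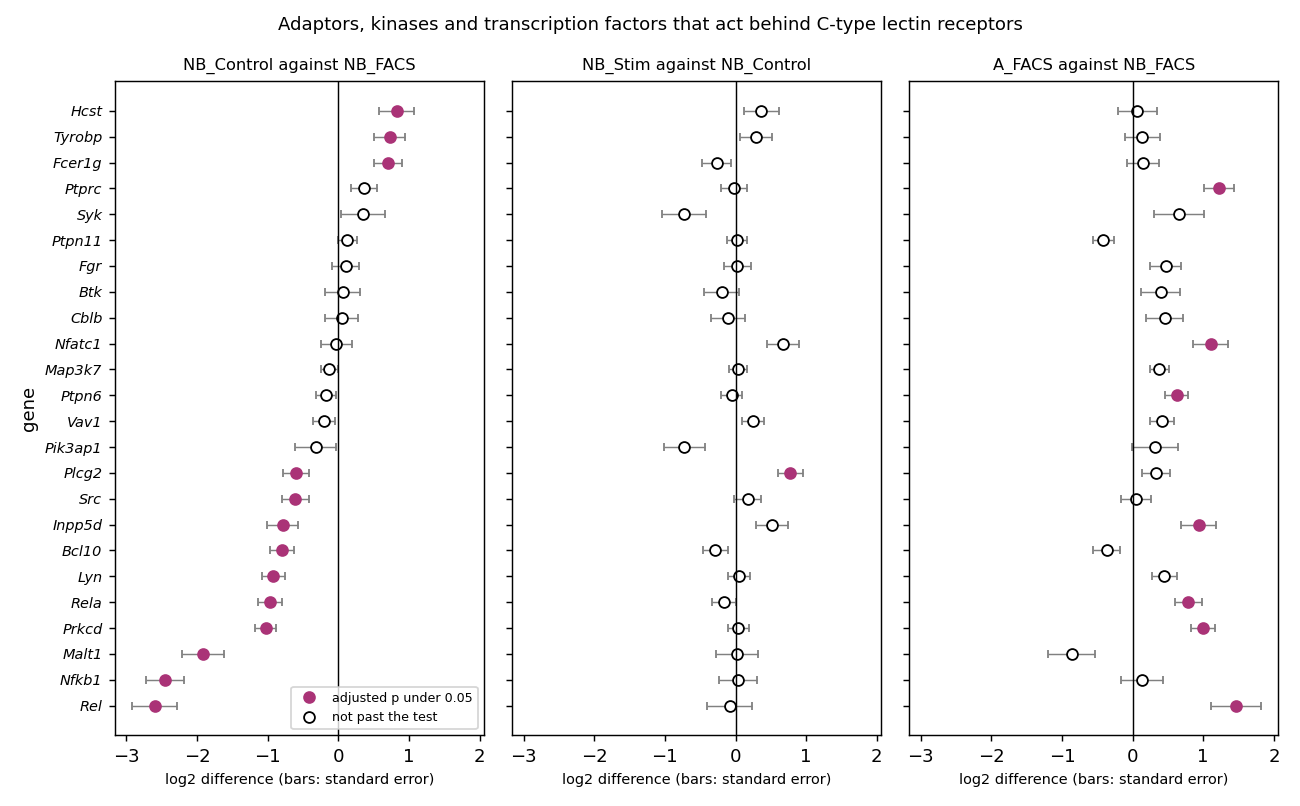
Log2 difference with its standard error (horizontal axis) of 24 of the 25 signalling genes (vertical axis, ordered by the culture difference) in 3 comparisons, filled where the limma adjusted p was under 0.05. Of the genes shown, 3 were called higher and 10 lower in culture, 1 higher with cytokines, and 7 higher with age.

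The genes whose pattern over the 11 arrays lay closest to each receptor were found by Pearson correlation, as a description. Slc12a7 lay closest to Mrc1 (r = 0.99), Arhgap31 to Cd93 (0.99), Rnf130 to Clec4a3 (0.99), Samd1 to Clec4a2 (0.97), Galc to Clec4d (0.997) and Fabp4 to Clec4n (0.998). Clec4a4 was among the closest 3 to both Clec4a2 (0.97) and Clec4a3 (0.97). For the others these were C3ar1 (0.95) for Clec4a1, Dab2 (0.98) for Clec4e, Gm34766 (0.98) for Clec5a and Cers5 (0.97) for Clec12a. Among the receptors, Clec4a2 and Clec4a3 correlated at 0.95, and Clec4d with Clec4n at 0.96 and with Clec4e at 0.92. Clec4d and Clec5a ran opposite (-0.93). The points share 4 groups and 2 slides.

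Promoters are shown for Mrc1, Clec4a3 and Clec4d, which stand for the patterns described above. RefSeq windows on GRCm38.p6 matched 8 of the 10 genes, in 9 windows, and the 250 bases before the annotated start were searched on both strands. Capitals mark GAGGAA or its complement TTCCTC, the core bound by PU.1, a transcription factor of all macrophages.
Mrc1, chr2:14229164-14229413, plus strand: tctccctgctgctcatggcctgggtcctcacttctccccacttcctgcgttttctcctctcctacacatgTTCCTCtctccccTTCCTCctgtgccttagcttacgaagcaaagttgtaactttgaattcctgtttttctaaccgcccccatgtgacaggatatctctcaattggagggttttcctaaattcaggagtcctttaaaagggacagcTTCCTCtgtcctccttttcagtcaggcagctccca
Clec4a3, chr6:122952394-122952643, plus strand: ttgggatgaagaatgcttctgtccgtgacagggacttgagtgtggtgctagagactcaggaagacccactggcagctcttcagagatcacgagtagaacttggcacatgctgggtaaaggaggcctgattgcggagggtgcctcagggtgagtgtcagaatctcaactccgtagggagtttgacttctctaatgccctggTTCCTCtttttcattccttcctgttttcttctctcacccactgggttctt
Clec4d, chr6:123261857-123262106, plus strand: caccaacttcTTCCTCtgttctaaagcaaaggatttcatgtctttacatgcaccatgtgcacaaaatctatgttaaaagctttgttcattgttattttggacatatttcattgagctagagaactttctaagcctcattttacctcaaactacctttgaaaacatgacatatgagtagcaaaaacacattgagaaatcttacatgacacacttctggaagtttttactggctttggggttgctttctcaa
The motif was present in 7 of 9 windows, from Mrc1, Clec4a1, Clec4a3, Clec4d, Clec4e, Clec5a and Clec12a, and in 23.3% of 32851 windows of the same length over all genes. CAGAC, bound by SMAD factors downstream of TGF-β, was found in 3 of 9 windows (Clec4e, Clec5a and Clec12a) and in 42.2% of all. In the 9 windows no base lay in both motifs (0 bases). The Clec4a1 and Clec4a3 windows shared a run of 17 bases, cctggttcctctttttc, which holds the motif in both. For Clec4a3 this was the printed window. Its other window, chr6:122952265-122952514, held 0 copies of the PU.1 motif and lacked this run. A match describes the sequence and is not a measured site.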

How the data were processed

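RNA of 11 samples in 4 groups was measured on custom single-colour Agilent mouse arrays. The deposited values are background-corrected spot intensity (gProcessedSignal), which the authors obtained with Agilent Feature Extraction 11 per the labels' processing notes. The series value table held the same signals (100% of spots within 1% on each array, column medians 32.3 to 92.6), so it gave no separate alternative. As in the study's methods, log2 intensities were quantile normalised between arrays. Control and flagged spots were left out, probes had to be well above background throughout 1 or more of the groups, and probes of a gene were averaged. Genes were named through RefSeq accessions (GRCm38.p6), which matched 36264 probes (60.4%). Differences were fitted with limma 3.58.1 in R 4.3.3, with 1 mean per group over all 11 arrays, and Benjamini-Hochberg adjustment ran over 19555 genes. Calls have an adjusted p under 0.05. The number of arrays limits the precision.

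The receptors and gene lists were chosen with earlier results of these data known. Named genes were the 10 receptors, the 6 largest called rises and falls of the related and signalling lists in each comparison, markers that bear on a receptor, and the 3 genes closest to each receptor. Relatives of Mrc1 and Cd93, the cluster genes and Syk were named in addition, after their values were seen. Some genes of the lists are counted but not reported here by name. The scripts were tested on simulated data.

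Replicate numbers recur in the newborn groups. Deviations from group means correlated between same-numbered arrays in all 9 pairs (0.112 to 0.489). Differently numbered arrays of slide 1 correlated as well (0.185 to 0.364), and all pairs across slides were negative. The correlations thus do not single out the replicate numbers as pairs. The main fit was unpaired, and the replicate block was an alternative. Replicate 3 is also slide 2, and pairing and slide cannot be told apart. Alternatives were 75th percentile scaling, normexp background correction, other probe filters, the brightest probe, only the compared groups, replicate and slide blocks, slide 1 alone, leaving out each array, averaging replicates 1 and 2 of each culture, a fold minimum and the methods' Tukey test.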

Additional observations from a re-analysis of the deposited data

How the results depend on the processing

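No difference of the 10 receptors that was called changed sign under any alternative. Of the 10, 3 rather than 6 were called with age without A_FACS replicate 1, 5 rather than 8 were called in culture with cultured replicates 1 and 2 averaged, and 8 rather than 5 for cytokines with the slide block or within slide 1. Some sizes did move. With normexp, which pulls dim signals together, the cytokine difference was -2.17 for Clec4a2 and -2.70 for Clec4a3, and the adult difference was -2.52 for Clec4d and -0.84 for Clec4n. Among the tested genes Klrd1 reversed with age, at -0.57 with its brightest probe. Signal over background limits Clec4a4, Clec4b2, Ly75, Clec14a and the adult values of Clec4d, Colec12 and Clec11a. The adult Colec12 difference was as small as -0.89.

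Counts of calls over all genes depended on the setting, and the cause was not tested except where fewer arrays or a higher threshold entered by construction. For cytokines (666) they were 1009 with normexp, 1168 with the replicate block, 1476 with the slide block, 1032 within slide 1, 118 with cultured replicates 1 and 2 averaged, 425 with a log2 minimum of 1, 1590 by Tukey's test and 183 by Tukey's test with Benjamini-Hochberg adjustment. With the log2 minimum, culture gave 3159, NB_Stim against NB_FACS 3215 and age 2407. Adjusted Tukey tests gave 3547, 3620 and 2014, and only the compared groups gave 2923 for age. The replicate block shared 629 genes with the 666, and it gave 7364 for culture and 7787 for NB_Stim against NB_FACS. It brought Clec4d and Clec12a to the cytokine calls.

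For the related lectin genes, probes well above background on all arrays gave 10 in culture and 5 with age. Adjusted Tukey tests gave 10 in culture, 3 for cytokines, 6 for NB_Stim against NB_FACS and 3 with age. The slide block gave 17 for NB_Stim against NB_FACS and 15 with age, and slide 1 alone gave 18 and 15. For the signalling genes, culture gave 8 with replicates averaged, 4 with the log2 minimum and 8 by adjusted Tukey tests. Cytokines gave 1 with percentile scaling, with no filter or with only the compared groups, 4 with the brightest probe, 5 with the replicate block or the slide block, and 0 with replicates averaged, with the log2 minimum or by adjusted Tukey tests (limma gave 2969 of all genes at an unadjusted p under 0.05). Age gave 5 with only the compared groups, 3 with the log2 minimum and 2 by adjusted Tukey tests.

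Leaving out 1 array at a time gave 4516 to 6454 calls over all genes in culture, 304 (without NB_Stim replicate 1) to 703 for cytokines, 4638 to 6581 for NB_Stim against NB_FACS and 2456 (without A_FACS replicate 1) to 5124 with age. In the same order the ranges were 13 to 19, 4 to 6, 9 to 13 and 5 to 12 for the related genes, and 8 to 14, 0 to 2, 10 to 13 and 3 to 9 for the signalling genes.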
